A study of Mus musculus with 8 samples.

Results

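miR-140 is represented on the mouse miRNA array by its 2 arms, mmu-miR-140-3p and mmu-miR-140-5p, out of 1881 mouse miRNAs, and both were followed by name through the 8 serum arrays. They were selected with the difference between the irradiated and the non-irradiated sera already known. All values of that contrast for these arms are therefore a description, and no test is given for them. The irradiated group (7 Gy) held 4 arrays of serum RNA from male C57BL/6NJcl mice aged 8 weeks, taken 72 h after the whole body had received 7 Gy from an X-ray machine. The non-irradiated group (0 Gy) held 4 arrays of serum RNA from male C57BL/6NJcl mice of the same age, with no time of collection stated. The labels number the samples of each group as replicates, and nothing in them says that sera were pooled or that each came from a separate mouse. Serum has no single cell of origin, so a change in release, in survival of the RNA in blood and in the number of source cells cannot be told apart in these data.

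Each miRNA gene yields a hairpin precursor that is cut into a duplex, and one strand of the duplex, or each of them, is loaded into Argonaute proteins to silence mRNAs that pair with its seed. Mir140 lies inside Wwp2, the gene of an E3 ubiquitin ligase, and is known above all from chondrocytes, where SOX9 drives its transcription. Mice without Mir140 have short bones and develop osteoarthritis-like joint damage, and the 5p arm represses Adamts5, an enzyme that degrades the cartilage proteoglycan aggrecan. The 3p arm is the more abundant one in cartilage. In the RefSeq annotation Mir140 lies within the bounds of Wwp2 and on the same strand.

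The mature 3p arm is shown first because its seed (bases 2 to 8 from the 5′ end, in capitals) defines which other miRNA of the array would be read as its family. The second sequence is mmu-miR-497b, the one other mature mouse miRNA in the RefSeq table (GRCm38.p6) with that seed. The third is the Mir140 hairpin, with the 3p arm (bases 45 to 65) in capitals.
mmu-miR-140-3p: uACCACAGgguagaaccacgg
mmu-miR-497b: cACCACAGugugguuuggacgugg
Mir140 hairpin: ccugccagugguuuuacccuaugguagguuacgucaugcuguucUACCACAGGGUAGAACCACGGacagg
The 3p arm is 21 bases long and lies at chr8:107551288-107551308 on the plus strand, within the 70-base hairpin at chr8:107551244-107551313. mmu-miR-497b is 24 bases long and lies at chr11:70234763-70234786 on the minus strand. It was detected on 0 of the 8 arrays, whereas miR-140-3p was detected on all 8, so these sera gave no second miRNA with this seed among those matched.

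The arrays differed in overall brightness, and this bears on every value below. The 90th percentile of the signals of the 1881 miRNAs was 7.68 to 93.9 units on the 7 Gy arrays and 33.4 to 91.2 units on the 0 Gy arrays, and 378 to 687 miRNAs were detected per array at 7 Gy and 531 to 603 at 0 Gy. The control RNA added before labelling read 2.31, 3.35, 1.95 and 1.97 (log10 signal) on 7 Gy arrays 1 to 4, against 3.68, 3.45, 2.73 and 3.37 on 0 Gy arrays 1 to 4. The extraction software marked it out of range on 7 Gy arrays 1, 3 and 4 and in range on the other 5. The control RNA added at hybridisation was in range on all 8. All arrays came from 1 slide. The 7 Gy arrays filled other slide columns than the 0 Gy arrays, so column and dose cannot be told apart. In the slide rows, replicates 1 and 2 of both groups shared row 1, and replicates 3 and 4 shared row 2.

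miR-140-3p was lower in the 7 Gy sera. As deposited, its summed probe signal was 65.3, 1887, 68.2 and 179 units in 7 Gy sera, against 5761, 5582, 2645 and 1065 units in 0 Gy sera. Replicates 1, 3 and 4 at 7 Gy lay below every non-irradiated serum, and 7 Gy replicate 2 lay above 0 Gy replicate 4. The deposited signals averaged 15.6-fold lower on the log2 scale (log2 fold change -3.97).

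Scaling each array to a common 90th percentile, by 1 factor per array, matched the arrays in that percentile alone. The scaled signal of miR-140-3p was 283, 715, 316 and 136 units in 7 Gy sera, against 2246, 2521, 2815 and 989 units in 0 Gy sera. The highest irradiated serum was then below the lowest non-irradiated one. Mean scaled signal was 362 ± 248 units at 7 Gy and 2143 ± 803 units at 0 Gy (SD, n = 4 each). The mean log2 signal was 8.25 ± 0.98 at 7 Gy and 10.96 ± 0.69 at 0 Gy, a log2 fold change of -2.71 (SE 0.60), or 6.53-fold lower. The SD within groups was 0.85 on this scale. Set one by one against the 0 Gy mean, the 7 Gy sera differed by -2.82, -1.48, -2.66 and -3.88 on the log2 scale, so replicate 2 showed the smallest difference.

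**Figure D1:**
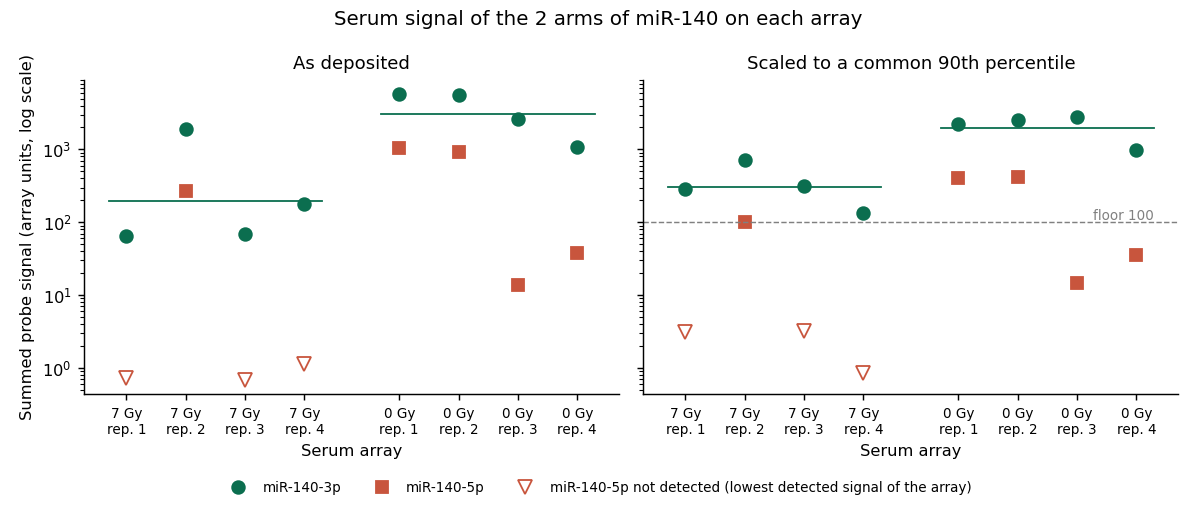
Summed probe signal (log axis, array units) of miR-140-3p (circles) and miR-140-5p (squares) on the 4 arrays at 7 Gy and the 4 arrays at 0 Gy, as deposited and after scaling; horizontal lines are geometric means of miR-140-3p, and open triangles mark arrays on which miR-140-5p was not detected, drawn at the lowest detected signal of that array. After scaling, miR-140-3p is at 136 to 715 units at 7 Gy and at 989 to 2815 units at 0 Gy, and miR-140-5p is spread over 14.5 to 422 units at 0 Gy alone.

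Of the 2 arms, 1 had groups that did not overlap with the irradiated sera lower, as had 5.29% of the 208 tested miRNAs. The arm was chosen on this contrast, so nothing is read from that count. Among the 208 tested miRNAs, 3 had a lower log2 fold change than miR-140-3p.

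Measures that need no scaling factor also put every 7 Gy serum below every 0 Gy serum, although the order among the 0 Gy sera differed. Ranked by signal among the 1881 miRNAs of its own array, miR-140-3p stood at place 68, 27, 61 and 104 in 7 Gy sera, against 12, 8, 13 and 22 in 0 Gy sera. Its share of the summed miRNA signal of the array was 0.203%, 0.777%, 0.184% and 0.112% in 7 Gy sera, against 1.32%, 2.03%, 1.84% and 0.940% in 0 Gy sera. On each of these measures the groups did not overlap, and again 7 Gy replicate 2 was the irradiated serum nearest to the non-irradiated ones.

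Against the labelling control the separation was lost. The ratio of the miR-140-3p signal to the labelling control of its array was 0.316, 0.835, 0.774 and 1.90 in 7 Gy sera, against 1.20, 1.98, 4.94 and 0.459 in 0 Gy sera. These ranges overlapped. Relative to the hybridisation control they overlapped as well, since 7 Gy replicate 2 had a ratio of 0.0704 and 0 Gy replicate 4 one of 0.0457. With a floor of 100 units, the log2 fold change was -0.95 with arrays scaled to the labelling control and -2.98 with arrays scaled to the hybridisation control. Without the arrays on which the labelling control was out of range, 1 irradiated serum was left, and its log2 fold change was -1.48. Whether labelling took part in the lower signal was not tested.

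The scaled groups did not overlap over all arrays, so they could not overlap within a slide row, and nothing is read from that. Only the sizes are given by row. In row 1 the log2 fold change of miR-140-3p was -2.40 and in row 2 it was -3.01, with no overlap between 2 arrays at 7 Gy and 2 arrays at 0 Gy in either row.

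miR-140-3p was read by 2 probes of 15 spots each, and all 30 spots were above background on every array. Probe A_54_P3308 was brighter than probe A_54_P3307 by 2.75, 3.03, 3.07 and 2.77 times on the 7 Gy arrays, and by 3.16, 2.74, 2.78 and 3.00 times on the 0 Gy arrays. The ratio of the probes was thus close to the same at both doses, while the signal itself differed by up to 28.9-fold between the 7 Gy arrays as deposited. Taken alone, the probes gave scaled log2 fold changes of -2.71 and -2.70. The spots of 1 probe on 1 array varied by 1.39% to 7.74% (CV), and the software's error of the summed signal was 7.80% to 8.00%. These errors cover the spots and the scan, not extraction or labelling. Between sera, the highest scaled signal was 5.27 times the lowest at 7 Gy and 2.85 times the lowest at 0 Gy.

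miR-140-5p was detected on fewer arrays. Its deposited signal was 267 units in 7 Gy replicate 2 and it was not detected in 7 Gy replicates 1, 3 and 4, where none of its 30 spots was above background. In 0 Gy sera it was 1051, 935, 13.6 and 37.9 units, with all 30 spots above background in each. Replicates 1 and 2 at 0 Gy were therefore far above replicates 3 and 4 of the same dose, and the highest was 77.3 times the lowest.

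Scaling did not bring the non-irradiated sera together. The scaled signal of miR-140-5p was 101 units in 7 Gy replicate 2, against 410, 422, 14.5 and 35.3 units in 0 Gy sera, so the irradiated serum in which it was detected lay between the non-irradiated ones. By rank among the 1881 miRNAs it was at place 97 in 7 Gy replicate 2, against 47, 40, 281 and 190 in 0 Gy sera. With signals below 100 units set to 100, 3 of the 4 arrays at 7 Gy and 2 of the 4 at 0 Gy stood at the floor. The log2 means were then 6.65 ± 0.01 at 7 Gy and 7.67 ± 1.19 at 0 Gy (SD, n = 4 each), a log2 fold change of -1.02 (SE 0.59). That difference was close in size to the SD within groups of 0.84. It was set by the floor, since it was -2.44 with a floor of 10 units. In slide row 1 it was -2.05, and in row 2 all 4 arrays were at the floor.

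The probes of miR-140-5p kept a steady ratio as well. Probe A_54_P1076 was brighter than A_54_P1075 by 1.25 times in 7 Gy replicate 2, and by 1.27, 1.23, 1.23 and 1.39 times in 0 Gy sera. The spread among the 0 Gy arrays was thus found by each probe. Replicates 1 and 2 at 0 Gy lay in slide row 1 and replicates 3 and 4 in row 2. Serum and slide row therefore cannot be told apart in the gap between these pairs. The CV of the spots of 1 probe was 2.32% to 10.5% for A_54_P1075 and 5.29% to 14.8% for A_54_P1076 over the 5 arrays with signal.

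**Figure D2:**
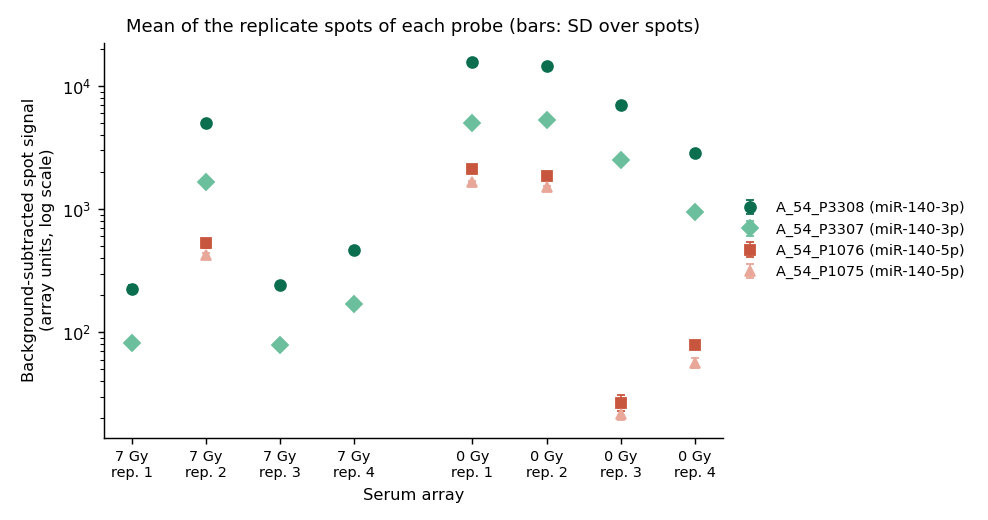
Mean background-subtracted signal (log axis, array units) of the 15 spots of each of the 4 probes on each array, with bars for the SD over spots, shown where spots were above background. The probes of an arm move in parallel over the arrays, and the miR-140-5p probes have no spot above background on 7 Gy arrays 1, 3 and 4.

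The detection of miR-140-5p on exactly 1 array at 7 Gy and all 4 at 0 Gy was shared with many miRNAs. Of 804 miRNAs detected on at least 1 array, 55 others (56 with miR-140-5p, 6.97%) were detected on exactly the same 5 arrays. miR-140-3p belonged to the 311 miRNAs detected on all 8.

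Both arms come from the same hairpin. The ratio of their signals on an array does not depend on a scaling by 1 factor. Because the arms are read by different probes, only differences in this ratio between arrays were considered, not its size. The signal of miR-140-3p over that of miR-140-5p was 7.07 in 7 Gy replicate 2. It was at least 90.1, 99.6 and 161 in 7 Gy replicates 1, 3 and 4, where the lowest detected signal of the array stood in for the undetected arm. In 0 Gy sera the ratio was 5.48, 5.97, 195 and 28.1. The lower ratios were those of replicates 1 and 2 in slide row 1, and the higher those of replicates 3 and 4 in row 2. The ratio thus spread over 35.5-fold among non-irradiated sera alone, and every value or bound at 7 Gy lay within that range, although a ratio given as a bound may be higher.

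The difference between the arms in log2 fold change (3p minus 5p) was -1.68 (SE 0.73), against an SD within groups of 1.03. The sign of this value depended on the floor. With no floor, and the value of 0.1 that the software gives an undetected miRNA, it was 3.74. No direction is therefore given for the ratio of the arms between 7 Gy and 0 Gy.

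**Figure D3:**
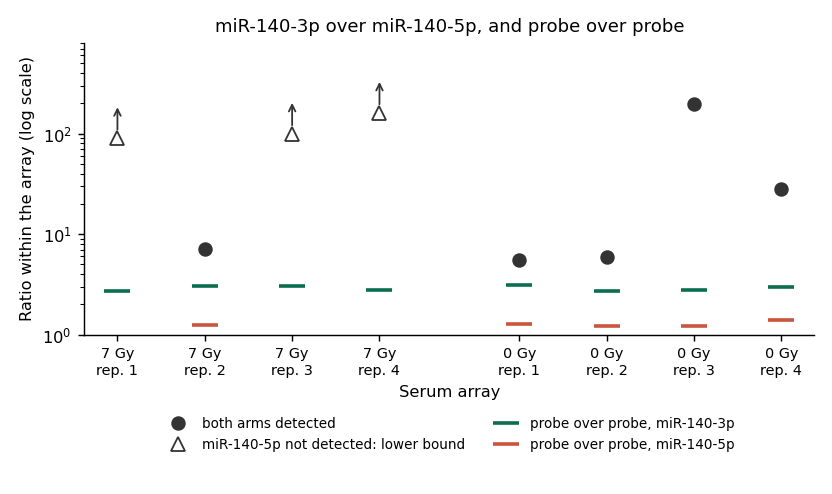
Ratio of miR-140-3p to miR-140-5p signal within each array (log axis), as filled circles where both arms were detected and as open triangles with arrows where it is a lower bound, beside the ratio of the probes within each arm (dashes). The probe ratios stay between 1.23 and 3.16, whereas the ratio of the arms at 0 Gy runs between 5.48 and 195.

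Other hairpins were set beside miR-140 for this spread. Of 723 hairpins with both arms on the array, 41 had both arms detected on all 4 arrays at 0 Gy. The median range of their 3p to 5p ratio over those arrays was 4.58-fold, and miR-140 had the third widest, after miR-151 with 99.5-fold and miR-150 with 67.1-fold. Among the 41, in 3 hairpins each arm had a mean 0 Gy signal above 100 units. Of these, miR-142a had a range of 4.52-fold, and the others were miR-150 and miR-140. This comparison was chosen after the spread of miR-140 had been seen.

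The miRNAs whose profile was nearest to each arm were found by the root mean square difference of log2 scaled signals over the 8 arrays, each centred on its own mean. Nearest to miR-140-3p was miR-92a-3p of the miR-17-92 cluster, at 0.35 log2 units. Its scaled signals were 240, 820, 249 and 100 units in 7 Gy sera, against 2918, 2305, 1833 and 1243 units in 0 Gy sera, the value of 100 being the floor. As with miR-140-3p, 7 Gy replicate 2 was the highest and replicate 4 the lowest of the irradiated sera. Next came let-7b-5p at 0.68, miR-29a-3p, which targets collagen mRNAs, at 0.85, miR-25-3p at 0.92 and miR-30e-5p at 0.94. Their log2 fold changes were -2.90 for miR-92a-3p, -2.50 for let-7b-5p, -2.09 for miR-29a-3p, -3.96 for miR-25-3p and -1.47 for miR-30e-5p. The distance counts the step between the doses, so the miRNAs nearest to miR-140-3p were bound to be lower at 7 Gy. Nothing is therefore read from their fold changes. Among them, let-7b-5p and miR-25-3p stood at the floor on 3 arrays each, all at 7 Gy. The median distance of all tested miRNAs from miR-140-3p was 1.69. miR-140-5p was 15th nearest, at 1.23.

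Nearest to miR-140-5p were let-7g-5p at 0.14, let-7c-5p at 0.25, miR-26a-5p at 0.30, miR-20a-5p at 0.37 and miR-652-3p at 0.38, against a median of 1.13. Each of these 5 stood at the floor on 4 to 6 of the 8 arrays, so the likeness rests mainly on the shared floor and on 0 Gy replicates 1 and 2. By this measure miR-140-3p was in place 124 from its partner arm.

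**Figure D4:**
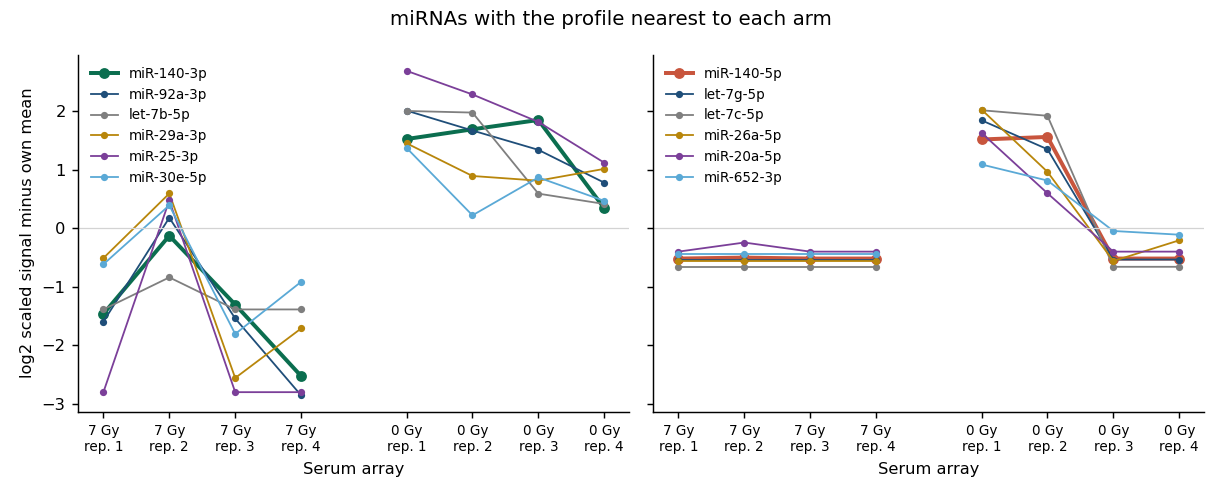
Log2 scaled signal minus the miRNA's own mean over the 8 arrays, for each arm (thick line) and its 5 nearest miRNAs (thin lines); lines join arrays of 1 dose only to guide the eye. miR-140-3p and its neighbours are higher on average at 0 Gy than at 7 Gy, a step that the choice of neighbours builds in. miR-140-5p and its neighbours stand out in 0 Gy replicates 1 and 2.

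Of the other miRNAs described in chondrocytes or cartilage, none passed the test in either direction. Of 13 on the list, 12 were detected on at least 1 array, 4 on all 8, and 5 could be tested. Using limma with Benjamini-Hochberg adjustment over the 208 tested miRNAs, 0 of these 5 were higher and 0 were lower, beside 1.92% of all tested miRNAs called higher and 1.92% called lower. The number was also 0 at an unadjusted limma p under 0.05, beside 46 higher and 16 lower of the 208. By the methods' t-test with its fold limit it was 0 as well, beside 48 of the 208. With 5 miRNAs tested, little can be read from these counts of 0. The median log2 fold change of the 5 was -0.09, beside 0.17 over all tested, and 3 of the 5 were below 0.

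miR-24-3p is made in part from a cluster with miR-23b and miR-27b. Its scaled signals were 1232, 1006, 439 and 437 units in 7 Gy sera, against 1413, 120, 261 and 80.4 units in 0 Gy sera, and the groups overlapped. The log2 fold change was 1.44 (SE 0.88, limma adjusted p = 0.311). miR-145a-5p, which represses Sox9, had 105, 13.1, 312 and 181 units in 7 Gy sera, against 15.9, 13.0, 25.5 and 30.0 units in 0 Gy sera. In scaled signal, replicates 1, 3 and 4 at 7 Gy were above all non-irradiated sera, and 7 Gy replicate 2 lay within their range. Those 3 were the arrays with the labelling control out of range. The scaling factor of 7 Gy replicate 1 was 4.33, against 0.390 to 1.06 at 0 Gy. The log2 fold change of miR-145a-5p with the floor was 0.64 (SE 0.36, limma adjusted p = 0.273). miR-27b-3p, miR-23b-3p and miR-148a-3p had log2 fold changes of -0.09, -0.09 and -0.15 and were at the floor on all but 1 array.

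The miR-455 and miR-675 hairpins, also active in cartilage, gave little signal. miR-455, from an intron of the collagen gene Col27a1, had its 3p arm detected on 2 arrays and its 5p arm on 3, at scaled signals of at most 9.51 units. Of the arms of miR-675, which is cut from the H19 RNA, miR-675-5p was detected on 0 arrays and miR-675-3p on 6. miR-199a-5p and miR-199a-3p were detected on 5 and 3 arrays. miR-214-3p and miR-365-3p were detected on all 8, in each case below 100 units.

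miRNAs of blood cells and other tissues were read beside the arms, because serum can hold RNA of any of them. Of 12 markers, 12 were detected on at least 1 array, 4 on all 8, and 10 were tested. With limma 0 were called, beside 1.92% of all 208 tested miRNAs called higher and 1.92% called lower. Of the 10, 2 had an unadjusted limma p under 0.05, beside 46 higher and 16 lower of the 208. The methods' t-test called 2 of the markers, beside 48 of the 208. Nothing about the markers is read from these counts. The 4 red blood cell markers summed to 7322 to 25820 scaled units in 7 Gy sera and 16446 to 80867 units in 0 Gy sera. miR-451a, made in red cells, had 83.5, 14871, 32.9 and 10.6 units in 7 Gy sera, against 67369, 39046, 2762 and 5570 units in 0 Gy sera (log2 fold change -5.34, limma adjusted p = 0.129). Here too 7 Gy replicate 2 stood above the other irradiated sera, and 0 Gy replicates 1 and 2 above the other non-irradiated ones.

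miR-16-5p, abundant in red cells, was detected on the same 5 arrays as miR-140-5p. It had 810 units in 7 Gy replicate 2, against 6893, 4356, 63.2 and 68.3 units in 0 Gy sera. It so divided the 0 Gy sera into the same pairs as miR-140-5p, which are also the pairs of the slide rows. miR-486a-5p, also of red cells, had 12661, 2282, 25788 and 7312 units in 7 Gy sera, against 6501, 8009, 34551 and 10752 units in 0 Gy sera, and did not divide them so. miR-122-5p, the main miRNA of hepatocytes, had 806 units in 7 Gy replicate 2 and was not detected in the other 7 Gy sera, against 179, 442, 5.26 and 95.2 units in 0 Gy sera.

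The summed levels of the remaining classes overlapped between the doses. The 2 markers of myeloid cells and platelets summed to 6.87 to 306 units in 7 Gy sera and 187 to 1468 units in 0 Gy sera. Of these, miR-142a-3p, a miRNA of blood cells, had 91.5 units in 7 Gy replicate 2 and was not detected in the other 7 Gy sera, against 366, 887, 168 and 315 units in 0 Gy sera, and the groups did not overlap (log2 fold change -1.86, limma adjusted p = 0.060). The 2 lymphocyte markers summed to at most 6.11 units in 7 Gy sera and to 4.96 to 172 units in 0 Gy sera, with none detected in 3 of the 7 Gy sera. The 3 muscle markers summed to 81.3 to 809 units in 7 Gy sera and 276 to 1188 units in 0 Gy sera. The part of blood cells or other tissues in the miR-140 signals was not tested.

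The size of the miR-140-3p difference depended on the processing. It was below 0 under 24 of 24 alternatives, with values between -3.68 (no scaling, floor kept) and -0.95 (labelling control). Without scaling or floor, the deposited signals gave -3.97. The arm was chosen on this contrast and the alternatives reuse the same arrays, so nothing is read from that count. A floor of 10, no floor, and slide row or replicate as a block could not move the value from -2.71. The scaled signals of miR-140-3p were above the floor on every array, and each block held both doses equally. Leaving out each array in turn gave -3.12 to -2.32.

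**Figure D5:**
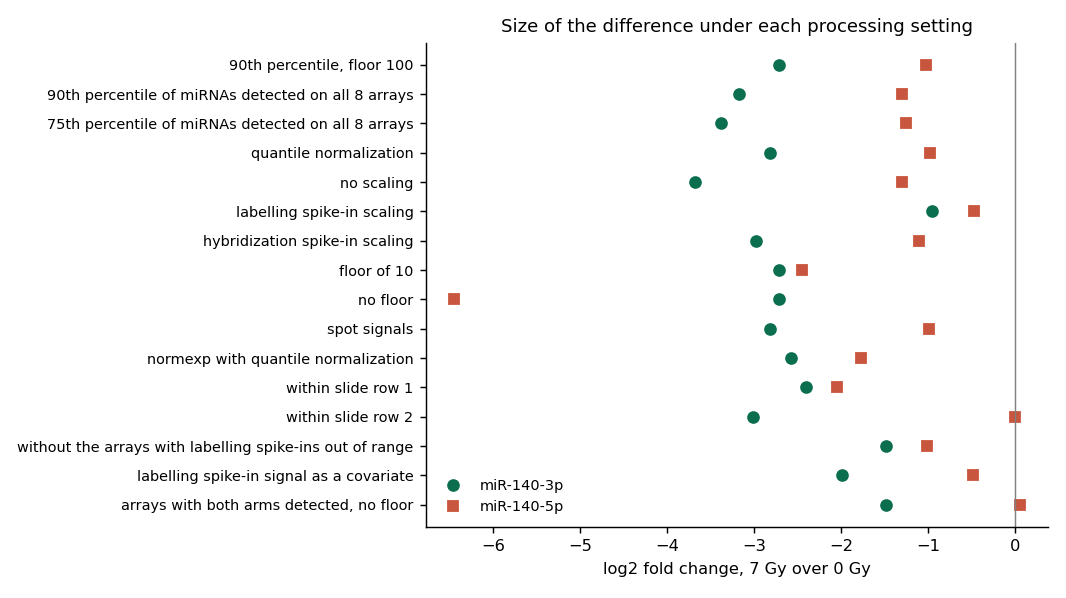
Log2 fold change of miR-140-3p (circles) and miR-140-5p (squares), 7 Gy over 0 Gy, under each processing setting (rows), with no error bars since each point is 1 setting. miR-140-3p runs between -3.68 (no scaling, floor kept) and -0.95. miR-140-5p runs between -6.44 with no floor and 0.061 on the arrays where both arms were detected.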

How the data were processed

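Serum RNA (30 ng) of the 4 samples at 7 Gy and the 4 at 0 Gy was labelled with Cy3 and hybridised to Agilent SurePrint G3 mouse miRNA arrays by the authors. Per the file headers, Feature Extraction 11.5.1.1 made the deposited intensity values; the submitters' processing notes give 11.5. The summed signal of a miRNA (its probes, background-subtracted) is an intensity, and the software writes 0.1 where a miRNA is not detected. Spot intensities in the deposited files gave the probe values.

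Each array was scaled by 1 factor to a common 90th percentile over 1881 mouse miRNAs, and signals below 100 were raised to 100 before taking log2. In the methods, the authors name this percentile and a lower cut-off, which was read here as a floor. Tested were the 208 miRNAs detected on at least 3 arrays and not at the floor on all 8, with limma 3.58.1 (R 4.3.3) and Benjamini-Hochberg adjustment (threshold 0.05). Python 3.11.15, pandas 2.3.3 and matplotlib 3.10.9 made the other values and the figures. The fit was tested on simulated data.

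The arms, the cartilage list and the markers were chosen with earlier results of these data known. Named miRNAs are the 2 arms, those sharing a seed, the lists and the 5 nearest profiles of each arm. Alternatives were other scalings, floors, filters, blocks and tests, and leaving out arrays. Of the miRNAs on the array, 1608 matched the RefSeq table by name. The p-values measure the spread between these samples, which may be technical, and with 4 arrays a dose the precision is low. No saturated spot was found, and no pair of arrays within a dose held identical values.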

Additional observations from a re-analysis of the deposited data

Results flagged for a closer look

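By the gap to its nearest neighbour over the range of the 4 sera, 7 Gy replicate 2 was set apart in 3 of the 8 groups of values checked, which are not independent. Its deposited miR-140-3p signal was 1887 units. Its deposited miR-140-5p signal was 267 units and its log2 scaled miR-140-5p signal was 6.66, but the other irradiated sera were tied there, undetected or at the floor, so any other value would have been set apart, and 6.66 is just above the floor. Where values are not tied and are normally distributed, chance sets about 1 in 20 groups apart. The deposited signals are not on a log scale, so that rate need not hold for them. The scaled miR-140-3p signals at 7 Gy were not set apart in this way. 7 Gy replicate 2 was also the irradiated array on which the labelling control was in range, and the part of this in its values was not tested.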

How the results depend on the processing

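limma called 8 of 208 miRNAs (4 higher, 4 lower). The number was 18 (7 higher, 11 lower) with the 75th percentile of miRNAs detected on all arrays, 4 with quantile normalization, 28 (9 higher, 19 lower) with a floor of 10, 2 with no floor, 19 (5 higher, 14 lower) with normexp, 26 (18 higher, 8 lower) with slide row as a block, 5 within row 1 and 17 within row 2. The 90th percentile of miRNAs detected on all arrays gave 7 (6 higher, 1 lower), and leaving out the arrays with labelling controls out of range 8 (8 higher, 0 lower). It was 0 with no scaling, labelling or hybridisation control scaling, the labelling control as a covariate, or no filter. The methods' t-test passed 48, and 2 after Benjamini-Hochberg adjustment. Leaving out 1 array gave 1 to 70 calls, 70 without 7 Gy replicate 2 and 1 without 0 Gy replicate 1 or 2. Whether the replicate numbers pair the sera was not settled. Correlations of arrays with the same number were -0.34 to 0.55, with 3 of 4 above 0.1. Of 8 arrays, 4 were best with their own number. Such arrays also share a slide row, and each row held 2 numbers. In row 1 the correlations were -0.34 and 0.43 for the same number and -0.41 and 0.71 for the other. In row 2 they were 0.55 and 0.42 for the same number and 0.29 and 0.49 for the other. A replicate block gave 0 calls and left the folds at -2.71 and -1.02. The median log2 fold change of all tested miRNAs was 0.17, and 0.50 with labelling control scaling. miR-140-3p moved to -3.68 with no scaling (floor kept) and to -0.95 with labelling control scaling. It was -1.48 without the out-of-range arrays, which left 1 irradiated serum. The arrays with both arms detected, a setting added after seeing the data, were the same arrays, so miR-140-3p had the same value there. miR-140-5p was -2.44 with a floor of 10, -6.44 with no floor, -2.05 within row 1, 0 within row 2, and 0.061 on the arrays with both arms detected. The difference between the arms was -0.48 with labelling control scaling, -0.26 with a floor of 10, 3.74 with no floor, -0.35 within row 1, -3.01 within row 2 and -0.47 without the out-of-range arrays. The shifts with the floor follow from undetected or dim miR-140-5p values. In row 2 miR-140-5p was at the floor on all 4 arrays, which sets its 0 and leaves the -3.01 of miR-140-3p as the difference. The cause of the other shifts was not tested.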
